A study of Mus musculus with 6 samples.

Results

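The 10 genes Csf1r, Adgre1, Mrc1, Cd68, C1qa, C1qb, C1qc, Tyrobp, Fcer1g and Lyz2, which mark tissue macrophages, were followed in whole embryonic pancreases at e15.5, comparing 3 Jarid2 WT with 3 Jarid2 Δpanc samples. They were chosen by name as macrophage genes, with every probe set whose annotation gives 1 of them as its single gene. All 10 of 10 genes had such a probe set, with 14 probe sets among 34958 that carry 1 symbol, for 18194 genes. Both groups were embryos of strain C57BL/6. Jarid2 WT embryos are labelled wild-type, and the alleles of these controls are not given in the sources used here. Jarid2 Δpanc embryos carried Pdx1-Cre and 2 floxed copies of Jarid2, so that Jarid2 was removed from progenitors of the pancreatic epithelium. By the account of the study, recombination was mosaic and confined to the epithelium. A description label of every sample names islets in glucose, whereas all the other labels name the pancreas of an e15.5 embryo, and these were followed.

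Macrophages of the embryonic pancreas come from blood-forming precursors of the yolk sac and fetal liver, not from the epithelium in which Pdx1-Cre is active. They live on signals through the receptor Csf1r, engulf dying cells, and in the pancreas they lie close to the growing islets and vessels. In a whole pancreas they are a minority of cells, and several of the 10 genes are also read in other cells of the myeloid lineage. Lyz2, Tyrobp and Fcer1g are expressed in neutrophils, Fcer1g in mast cells, and Mrc1 in lymphatic and some other endothelial cells. In RNA of a whole organ, fewer macrophages and less RNA per macrophage cannot be told apart.

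The 6 arrays had a median signal of 35 to 38 over all probe sets, and the share of probe sets below 16, the value to which dimmer readings were raised before taking log2, was 26.5% to 29.0%. Probe sets of Jarid2 had log2 fold changes of 0.01 to 0.13, which checks nothing about the deletion where probes lie outside the deleted part. By qRT-PCR of the floxed exon, the paper reports reduced Jarid2 expression in Jarid2 Δpanc pancreases at this stage. Sex, muscle and neutrophil genes set samples apart. Xist, the RNA of the inactive X chromosome, had signals of 24 and 12 in the first and the second of the Jarid2 WT replicates, and of 4197 to 4905 in the other 4 samples, so that sex differed within and between the groups. Skeletal muscle markers summed to 8280 in Jarid2 WT replicate 3 and to at most 234 elsewhere, with Acta1 and Mylpf, genes of muscle actin and myosin, at 3076 and 1820 there and at most 62 and 68 elsewhere. Neutrophil markers summed to 2738 in Jarid2 Δpanc replicate 1 and to 348 to 795 elsewhere. Of the pancreatic epithelium markers, 6 of 6 were measured and all lay above the floor on every array, with Ins2, an insulin gene, at a log2 fold change of -1.05.

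The macrophage genes were read on every array, and none of them passed the test of a difference between the groups. All 14 probe sets had a signal above 16 in all 6 samples. With limma over all probe sets, 0 of the 14 had an adjusted p under 0.05, where 0.00286% of all probe sets did, a single dim probe set of Cp with signals of 7, 13 and 16 against 23, 23 and 23. At an unadjusted p under 0.05, 1 of the 10 genes was lower, C1qa, and 0 were higher. Over all genes, each read from its brightest probe set, the shares at that p were 4.38% lower and 4.28% higher. The count of 1 turned to 0 without Jarid2 WT replicate 3 or without any single Jarid2 Δpanc sample, and to 2, Adgre1 and Mrc1, without Jarid2 WT replicate 2. The adjusted p from limma lay between 0.518 and 0.979 for the 10 genes.

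Most of the 10 genes had slightly higher means in Jarid2 Δpanc pancreases, with 1 sample the highest in most of them. The log2 fold change was positive in 8 of 10 genes, with a median of 0.26, against 51.9% positive and a median of 0.01 over all genes with a mean log2 signal of at least 6. Without Jarid2 Δpanc replicate 1 the median was 0.05, and without Jarid2 WT replicate 1 it was 0.14. Jarid2 Δpanc replicate 1 had the highest signal in 7 of the 10 genes, whereas it was the highest in 16.4% of all genes. Jarid2 WT replicate 1 had the lowest signal in 6 of the 10. Relative to the mean of the controls, the mean over the 10 genes was -0.22, 0.23 and -0.01 on the log2 scale in Jarid2 WT replicates 1, 2 and 3. It was 0.52, 0.13 and -0.02 in Jarid2 Δpanc replicates 1, 2 and 3, of which replicates 2 and 3 lay within the range of the controls.

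**Figure D1:**
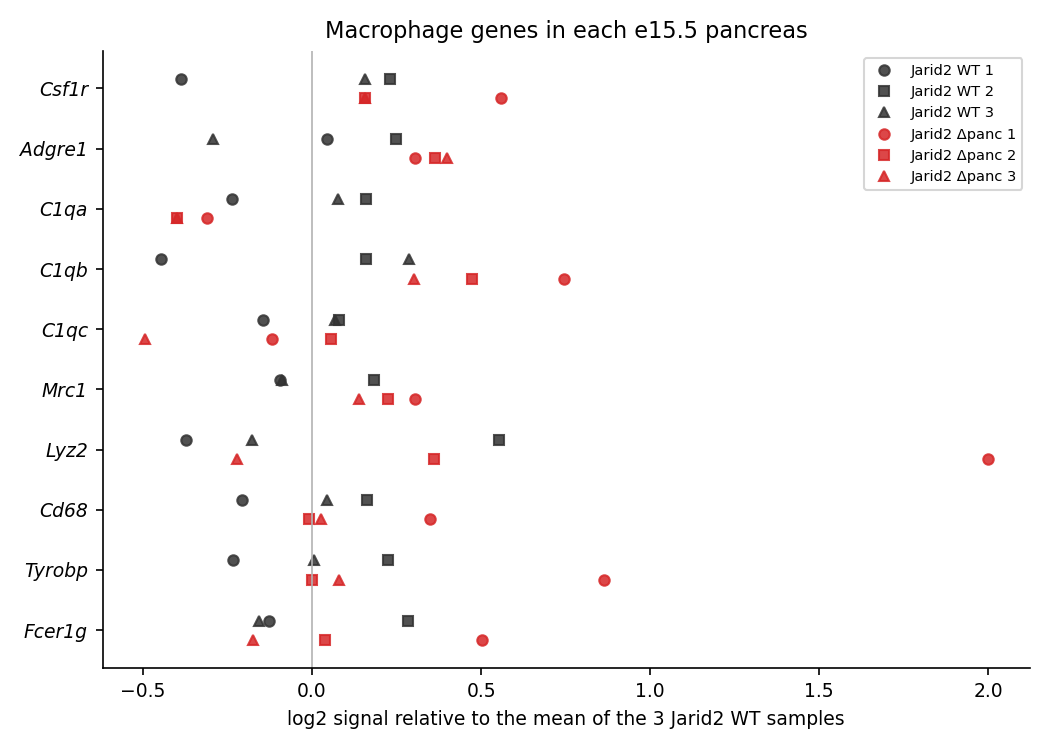
Log2 signal of the 10 macrophage genes (brightest probe set) by sample, set against the average control (horizontal axis, log2 units, 0 = mean of Jarid2 WT), with dark symbols for Jarid2 WT and red symbols for Jarid2 Δpanc samples. Jarid2 Δpanc replicate 1 lies farthest to the right in 7 genes, at 2.00 for Lyz2, while the 3 Jarid2 Δpanc samples lie left of all controls for C1qa alone.

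In 3 of the 10 genes the 3 Jarid2 Δpanc samples did not overlap the 3 Jarid2 WT samples, 1 lower (C1qa) and 2 higher (Adgre1 and C1qb). Over all genes, 5.64% lay apart and lower and 5.71% apart and higher. Among genes with a mean log2 signal of at least 6, the range in which all 10 genes lie, these shares were 8.45% and 7.49%. With 3 samples against 3, an exact permutation test cannot give a two-sided p below 0.1, so that a gap between the groups of a single gene cannot pass on its own.

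Csf1r encodes the receptor for the growth factors Csf1 and Il34, on which macrophages depend for survival. Its brightest probe set had signals of 588, 903 and 858 in Jarid2 WT and 1133, 858 and 858 in Jarid2 Δpanc samples. The groups overlapped, with replicate 1 the lowest of the controls and replicate 1 the highest of the Jarid2 Δpanc samples. On the log2 scale the change was 0.29 (standard error 0.22, 95% interval -0.30 to 0.88, adjusted p = 0.823 from limma). The other probe sets of Csf1r had log2 fold changes of 0.28 and 0.33, each with overlapping groups, and in both of them Jarid2 Δpanc replicate 2, not replicate 1, was the highest sample. All 3 probe sets had positive differences, and none of their intervals excluded 0.

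Adgre1, whose product is the F4/80 antigen used to stain mouse macrophages, had signals of 158, 182 and 125 in Jarid2 WT and 189, 197 and 202 in Jarid2 Δpanc. Every Jarid2 Δpanc sample lay above every control. The log2 fold change was 0.36 (standard error 0.15, 95% interval -0.04 to 0.75, adjusted p = 0.660 from limma), and 0.38 without Jarid2 Δpanc replicate 1. With sex, read from Xist, as a term in the fit, it was 0.65 (standard error 0.10, unadjusted p = 0.0043, adjusted p = 0.163 from limma). That fit sets the Jarid2 Δpanc samples against the single control with Xist RNA, Jarid2 WT replicate 3, which was the lowest of the 6 samples and the one with high muscle markers. The fit with sex called 525 of all 34958 probe sets. Without that control the log2 fold change was 0.21.

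Mrc1 encodes the mannose receptor CD206, an endocytic receptor of tissue macrophages. It had signals of 302, 366 and 303 in Jarid2 WT and 398, 377 and 355 in Jarid2 Δpanc samples. Only Jarid2 WT replicate 2 reached into the range of the Jarid2 Δpanc samples. On the log2 scale the change was 0.22 (standard error 0.10, 95% interval -0.03 to 0.48, adjusted p = 0.679 from limma). Endothelial markers had a median log2 fold change of 0.12 in 6 measured genes. Cdh5 and Esam, adhesion molecules of endothelium, had 0.15 and -0.06. The summed signal of the list was 1217 to 1305 in controls and 1244 to 1410 in Jarid2 Δpanc samples. Their part in the reading of Mrc1 was not tested.

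Cd68 encodes a glycoprotein of the late endosome and lysosome. It had signals of 68, 88 and 81 in Jarid2 WT and 100, 78 and 80 in Jarid2 Δpanc. The groups overlapped, with a difference of 0.12 on the log2 scale (standard error 0.15, adjusted p = 0.890 from limma). Without Jarid2 Δpanc replicate 1 it was 0.01, and without Jarid2 WT replicate 1 it was 0.02.

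The 3 genes of C1q, the recognition molecule of the classical complement pathway, had differences of both signs between the groups. Chains of C1qa, C1qb and C1qc are all needed to assemble the protein. The genes lie next to each other on chromosome 4, in the order C1qb, C1qc, C1qa. C1qa had signals of 437, 575 and 543 in Jarid2 WT and 415, 390 and 390 in Jarid2 Δpanc samples. Every Jarid2 Δpanc sample lay below every control. The log2 fold change was -0.37 (standard error 0.12, 95% interval -0.68 to -0.06, unadjusted p = 0.028, adjusted p = 0.518 from limma). It lay between -0.49 and -0.29 when single samples were left out.

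C1qb was measured by 3 probe sets, all of them with higher means in Jarid2 Δpanc. The brightest had signals of 122, 186 and 203 in Jarid2 WT and 279, 231 and 205 in Jarid2 Δpanc. This gave a difference of 0.51 on the log2 scale (standard error 0.24, 95% interval -0.14 to 1.16, adjusted p = 0.716 from limma). The groups lay apart there, with 203 in the nearest control and 205 in the nearest Jarid2 Δpanc sample. The other probe sets had overlapping groups and log2 fold changes of 0.33 and 0.24. The 3 probe sets ordered the samples much alike, with Pearson correlations of 0.85 to 0.98 over the 6 samples, and in each of them Jarid2 WT replicate 1 was the lowest sample and Jarid2 Δpanc replicate 1 the highest. The brightest and the one with 0.24 carry the suffix _x_at, which marks probe sets with probes that may also match other transcripts.

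C1qc had signals of 107, 125 and 124 in Jarid2 WT and 109, 123 and 84 in Jarid2 Δpanc samples. The groups overlapped, and only Jarid2 Δpanc replicate 3 lay below the controls. On the log2 scale the change was -0.19 (standard error 0.17, 95% interval -0.63 to 0.26, adjusted p = 0.823 from limma).

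The difference between C1qa and C1qb within each array, relative to its mean in the controls, was examined after the values were seen. On the log2 scale it was 0.21, 0.00 and -0.21 in Jarid2 WT and -1.06, -0.87 and -0.70 in Jarid2 Δpanc samples. The mean difference between the groups was -0.88. They did not overlap, with the brightest probe set of C1qb or with either of the others, for which the mean differences were -0.70 and -0.61. Each of these gave p = 0.1 in an exact two-sided permutation test, the smallest it allows, and p = 0.175 after Benjamini-Hochberg adjustment over 7 such exact tests. With the brightest probe set of C1qb this was fixed beforehand, since C1qa lay apart and lower and that probe set apart and higher. The probe sets of C1qb read the same gene and varied much alike, so that their tests are not independent. C1qb and C1qc also lay apart in this measure (exact p = 0.1), with a mean difference of 0.69, and C1qa and C1qc did not (exact p = 0.4), with -0.18. None of these differences passed after adjustment, and the pairs were chosen with the opposite signs known.

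**Figure D2:**
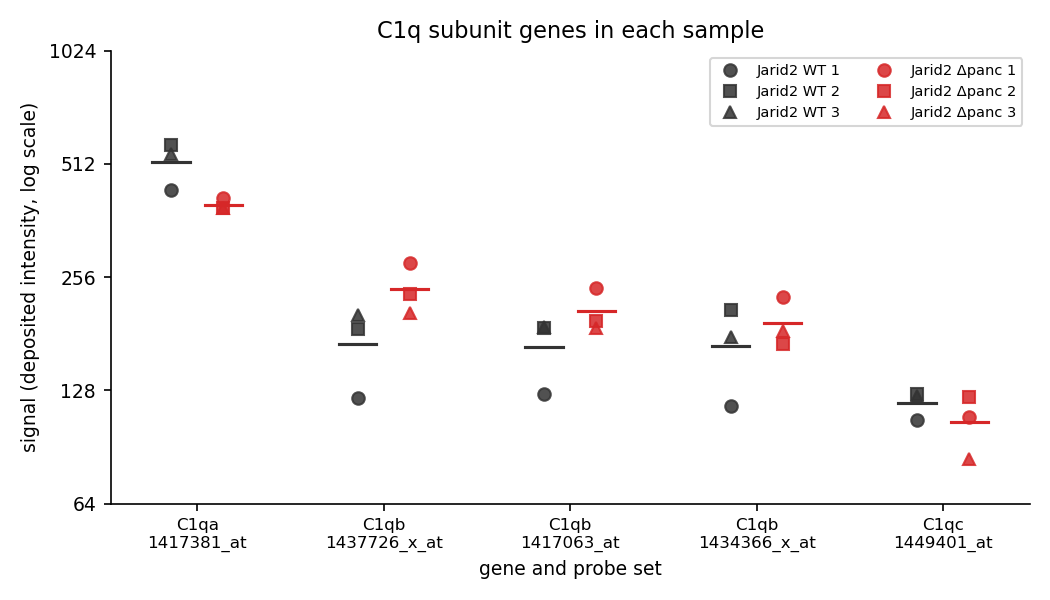
Deposited signal of the 5 probe sets of C1qa, C1qb and C1qc in each sample (vertical axis, log scale), with dark symbols for Jarid2 WT, red symbols for Jarid2 Δpanc and short lines for the group means (n = 3). C1qa lies lower in all 3 Jarid2 Δpanc samples, at 390 to 415, and the 3 probe sets of C1qb have higher means there; levels of different probe sets cannot be compared with each other.

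Promoter sequence was in hand for C1qb and C1qc and is shown because these neighbouring genes gave fold changes of opposite sign. PU.1, the product of Spi1, is the transcription factor that myeloid genes share, and the purine-rich box GAGGAA is the classic core of its sites. Among the 10 genes, 6 had a promoter in the RefSeq table for GRCm38.p6 (Fcer1g, Mrc1, C1qb, C1qc, Lyz2 and Cd68). In the 250 bases before the start, 4 of the 6 held this box on either strand (Mrc1, C1qb, C1qc and Cd68), against 23.3% of all 32851 promoters in the table. A match is a description of the letters and not a site. Capitals mark the box or its reverse complement in stretches of 100 bases on the minus strand of the chromosome, read 5′ to 3′ along the gene.
C1qb, chr4:136886201-136886300, the 100 bases before the start: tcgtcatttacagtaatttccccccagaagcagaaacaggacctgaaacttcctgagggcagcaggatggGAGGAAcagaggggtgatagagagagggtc
C1qc, chr4:136893015-136893114, from 200 to 101 bases before the start: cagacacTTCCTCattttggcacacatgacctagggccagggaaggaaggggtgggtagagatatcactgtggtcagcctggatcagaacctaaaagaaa

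Tyrobp and Fcer1g encode DAP12 and the common γ-chain of Fc receptors, short adaptors that link surface receptors of myeloid cells to the kinase Syk. Tyrobp had signals of 166, 228 and 196 in Jarid2 WT and 355, 195 and 206 in Jarid2 Δpanc samples. Jarid2 Δpanc replicate 1 stood 1.56-fold above the next sample, and the other 2 lay among the controls. The log2 fold change was 0.31 (standard error 0.29, 95% interval -0.45 to 1.07, adjusted p = 0.823 from limma), and 0.04 without that sample. Fcer1g had signals of 155, 206 and 152 in Jarid2 WT and 240, 174 and 150 in Jarid2 Δpanc samples. Its log2 fold change of 0.12 (standard error 0.23, 95% interval -0.49 to 0.73, adjusted p = 0.979 from limma) became -0.07 without Jarid2 Δpanc replicate 1.

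Lyz2, which encodes the lysozyme of macrophages and neutrophils, had the widest interval of the 10 genes. It had signals of 200, 380 and 229 in Jarid2 WT and 1035, 333 and 222 in Jarid2 Δpanc samples. Jarid2 Δpanc replicate 1 stood 2.72-fold above the next sample, which was a control. The other 2 Jarid2 Δpanc samples lay within the range of the controls. The log2 fold change of 0.71 (standard error 0.68, 95% interval -1.08 to 2.51, adjusted p = 0.823 from limma) was 0.07 without Jarid2 Δpanc replicate 1.

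The brightest probe set of the neighbouring gene Lyz1, a near-identical copy of Lyz2, also had its highest signal in Jarid2 Δpanc replicate 1. It had signals of 344, 657 and 311 in Jarid2 WT and 1658, 512 and 302 in Jarid2 Δpanc samples. Relative to the controls it differed from Lyz2 on each array by -0.12 to 0.23 on the log2 scale. It carries the suffix _x_at, as does another of Lyz1. The probe set of Lyz1 without that suffix had signals of 10 to 24, with 10 in Jarid2 Δpanc replicate 1. The reading of Lyz1 may therefore include transcripts of Lyz2 and cannot be assigned to Lyz1 with certainty. The probe set of Lyz2 carries no such suffix, and whether it also reads Lyz1 was not tested.
Promoter stretches of both genes are shown because the genes are near-identical copies. Of the 100 bases before the start, 92 were identical without gaps, and over 250 bases 200 of 252 aligned columns were. Neither stretch of 100 bases holds the box GAGGAA on either strand, so that none of the letters is in capitals. Both lie on the minus strand of chromosome 10 in GRCm38.p6 and come from RefSeq.
Lyz2, chr10:117282273-117282372: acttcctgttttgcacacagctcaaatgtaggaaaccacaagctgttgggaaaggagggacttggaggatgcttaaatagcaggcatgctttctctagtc
Lyz1, chr10:117292869-117292968: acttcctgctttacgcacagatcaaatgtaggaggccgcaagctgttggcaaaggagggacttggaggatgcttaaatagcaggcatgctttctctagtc

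**Figure D3:**
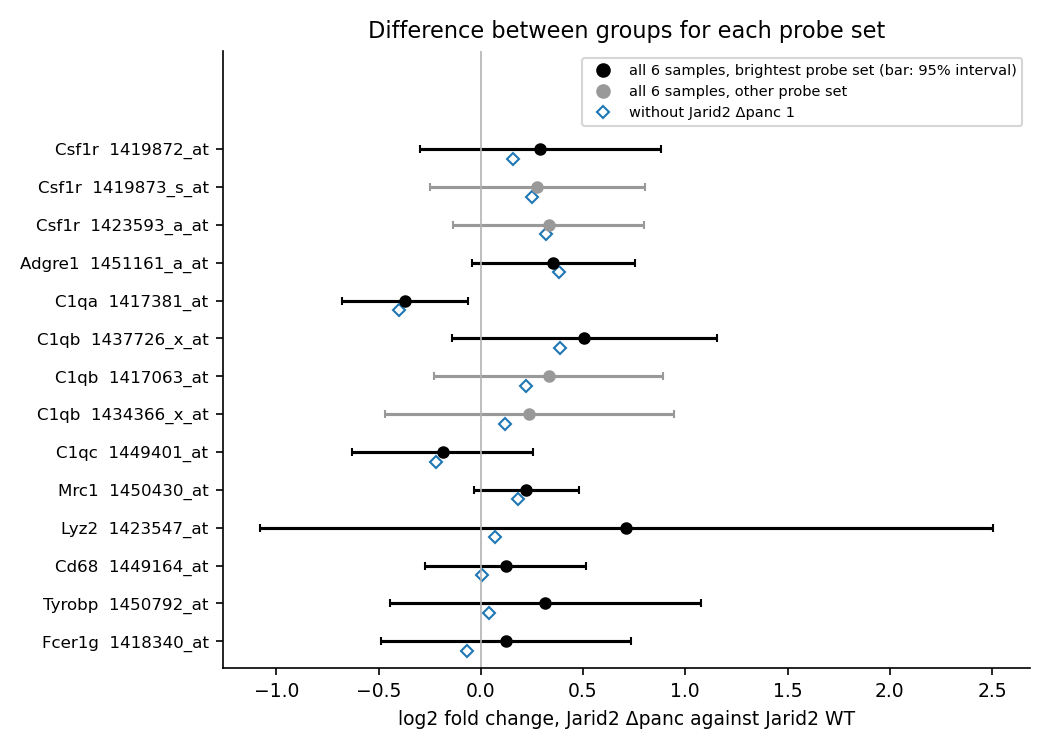
Log2 fold change of Jarid2 Δpanc against Jarid2 WT (horizontal axis, log2 units) for each of the 14 probe sets, with 95% intervals from limma (n = 3 per group) and open diamonds for the value without Jarid2 Δpanc replicate 1. The interval of C1qa lies below 0, at -0.68 to -0.06 before adjustment, the intervals of the other 13 span 0, and the diamond of Lyz2 lies at 0.07.

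Markers of neutrophils and mast cells were also high in Jarid2 Δpanc replicate 1, and those of other blood cells less so or not. Relative to the mean of the controls, sums in that sample were 0.90 for T and NK cell and 0.91 for erythroid markers. They were 1.13 for megakaryocyte and 1.37 for B cell markers. Among 11 measured neutrophil markers, 7 were highest in that sample, and their sum was 6.05 times the mean of the controls there, 1.76 times in replicate 2 and 1.24 times in replicate 3. S100a8 and S100a9, calcium-binding proteins of neutrophils chosen here with their values known, reached 1425 and 613 in that sample and at most 269 and 149 in the other 5. Ltf, the lactoferrin of neutrophil secondary granules, had 17, 10 and 20 in controls and 120, 45 and 38 in Jarid2 Δpanc samples, a log2 fold change of 1.75 (standard error 0.49, unadjusted p = 0.019, adjusted p = 0.454 from limma). Elane and Mpo, enzymes of neutrophil primary granules chosen in the same way, had at most 17 and 60 on any array. Among 8 mast cell markers, 6 were highest in Jarid2 Δpanc replicate 1, with Tpsab1 level with replicate 3 at 26. Of the neutrophil and mast cell markers, 6 of 11 and 4 of 8 were under the floor on at least 1 array. The mast cell sum was 317 to 409 in Jarid2 WT, and 317 and 329 in Jarid2 Δpanc replicates 2 and 3. It was 768 in Jarid2 Δpanc replicate 1. Cpa3 and Cma1, proteases of mast cells, had 375 and 165 there, and at most 214 and 88 elsewhere. The part of these cells in the readings of Lyz2, Tyrobp and Fcer1g was not tested.

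Genes shared by all leukocytes followed the same sample. Of 12 measured, 8 were highest in Jarid2 Δpanc replicate 1, with a summed signal of 1819 there against 1032 to 1291 in the other 5 samples. The actin regulators Coro1a and Lcp1 had log2 fold changes of 0.32 and 0.12 (standard errors 0.27 and 0.13), and 0.07 and 0.01 without that sample. Markers of T and NK cells summed to 103 to 137 on all arrays and those of B cells to 45 to 96, with 6 of 7 and 4 of 4 genes under the floor on at least 1 array. Cd8a and Cd3d, genes of T cells, had log2 fold changes of -0.18 and -0.12. Of the B cell genes, Cd79b and Pax5 had 0.50 and 0.15, in both cases on signals of at most 36. The sum of erythroid markers ranged from 2712 to 7618 in controls and from 4152 to 4999 in Jarid2 Δpanc. The globin Hbb-y and the haem enzyme Alas2 had -0.01 and -0.27. Gp9, a platelet receptor subunit, had -0.76 (standard error 0.13, unadjusted p = 0.00287, adjusted p = 0.278 from limma), on signals of 18 to 37.

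**Figure D4:**
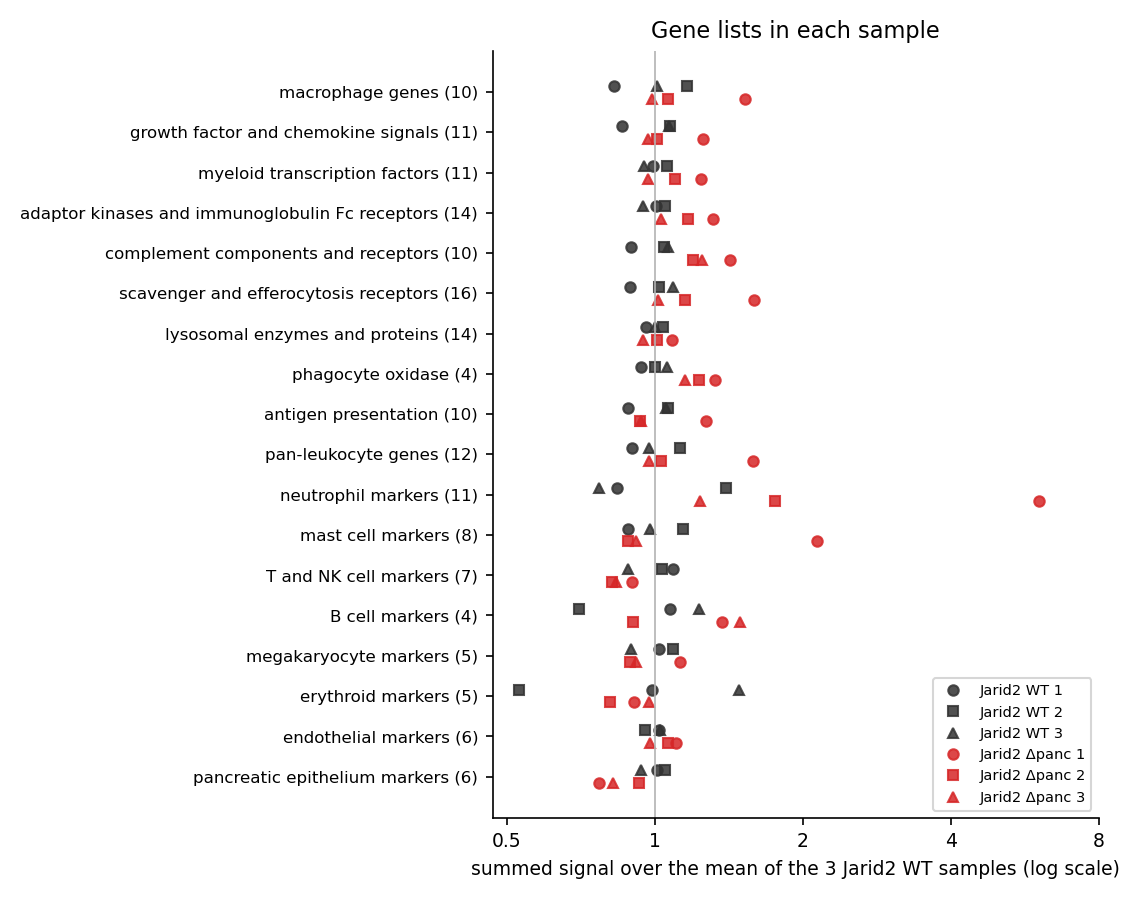
Summed signal of the macrophage genes and of 17 other gene lists in each sample, as a ratio to the average control (horizontal axis, log scale), with the number of measured genes in brackets, dark symbols for Jarid2 WT and red symbols for Jarid2 Δpanc. Jarid2 Δpanc replicate 1 lies at 1.53 for the macrophage genes, 2.14 for mast cell markers and 6.05 for neutrophil markers; the skeletal muscle markers are left out of the plot.

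Beyond the 10 genes, 9 lists with 113 genes were read, of which 102 were measured. They cover macrophage functions and also the 12 genes shared by all leukocytes, which are not particular to macrophages. At an adjusted p under 0.05 from limma none of the 102 differed. At an unadjusted p under 0.05, 8 were higher (7.84%) and 0 lower, where 4.28% and 4.38% of all genes were. In 10 of them, or 9.80%, all Jarid2 Δpanc samples lay above all controls, and in 0 below. Over all genes these shares were 5.71% and 5.64%, and among genes with a mean log2 signal of at least 6 they were 7.49% and 8.45%. The median log2 fold change was 0.13, and 0.02 without Jarid2 Δpanc replicate 1, when 7 were higher and 3 lower. Counted in both directions together, the 8 became 15 without Jarid2 Δpanc replicate 3. Of the 102 genes, 46.1% had their highest signal in Jarid2 Δpanc replicate 1.

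Among the 11 measured genes of growth factors, chemokines and their receptors, none passed even before adjustment. Csf2ra, a receptor subunit for the cytokine GM-CSF, and the fractalkine receptor Cx3cr1 had log2 fold changes of -0.16 and -0.08 (standard errors 0.33 and 0.19). Csf1, a ligand of Csf1r chosen here with its values known, read 65, 44 and 71 in Jarid2 WT and 70, 90 and 103 in Jarid2 Δpanc, which overlapped. The median of this list was 0.00.

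Among 11 myeloid transcription factors, 2 were higher before adjustment. Spi1, the gene of PU.1, had signals of 22, 31 and 33 in Jarid2 WT and 48, 66 and 39 in Jarid2 Δpanc samples. The groups lay apart at a low level, by 0.82 on the log2 scale (standard error 0.27, unadjusted p = 0.032, adjusted p = 0.533 from limma). Maf, which with its relatives governs the macrophage state and is also expressed in other cells of the pancreas, had 579, 646 and 636 against 858, 723 and 709. It too lay apart, with a log2 fold change of 0.30 (standard error 0.09, unadjusted p = 0.030, adjusted p = 0.524 from limma). The median of the list was 0.07, with 4 of 11 genes negative.

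Of 14 adaptor, kinase and Fc receptor genes, 1 was higher before adjustment. Sirpa, an inhibitory receptor that binds CD47 on other cells, had signals of 150, 130 and 155 in Jarid2 WT and 194, 207 and 166 in Jarid2 Δpanc. The difference was 0.38 on the log2 scale (standard error 0.12, unadjusted p = 0.025, adjusted p = 0.498 from limma). Of 10 complement genes, 9 had a positive fold change, and 7 without Jarid2 Δpanc replicate 1. In this list 5 of the 10 genes were under the floor on at least 1 array, and 1 was higher before adjustment. Cd93, a membrane protein of myeloid and endothelial cells once taken for a C1q receptor, had 354, 384 and 405 against 483, 447 and 497, a log2 fold change of 0.32 (standard error 0.07, unadjusted p = 0.00696, adjusted p = 0.349 from limma). In both genes the groups lay apart.

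Receptors for the uptake of particles and dying cells had a median of 0.21, with 15 of 16 genes positive and 12 of 16 without Jarid2 Δpanc replicate 1. Pros1, a ligand that bridges dying cells to the receptor Mertk, was the single gene that passed before adjustment, with the small log2 fold change of 0.08 (standard error 0.02, unadjusted p = 0.017, adjusted p = 0.445 from limma). Slc40a1, the iron exporter ferroportin, chosen with its values known, had 1388 in Jarid2 Δpanc replicate 1 and 333 to 485 in the other 5 samples. Lysosomal genes had a median of 0.00 over 14 genes. Lipa, the lysosomal acid lipase, was the 1 that passed before adjustment, with signals of 105, 108 and 103 in Jarid2 WT and 142, 134 and 124 in Jarid2 Δpanc. Its difference was 0.34 on the log2 scale (standard error 0.06, unadjusted p = 0.00268, adjusted p = 0.273 from limma).

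All 4 measured genes of the phagocyte oxidase, the enzyme that makes superoxide, had positive fold changes, with a median of 0.42. Without Jarid2 Δpanc replicate 1, the highest sample in 3 of the 4, the median was 0.31 and 3 were positive. Only 1 of the 4 had a mean log2 signal of at least 6. Cyba, its p22 subunit, which many cell types express, had signals of 713, 705 and 786 in Jarid2 WT and 899, 908 and 876 in Jarid2 Δpanc. The difference was 0.29 on the log2 scale (standard error 0.05, unadjusted p = 0.00308, adjusted p = 0.285 from limma). Cybb, the catalytic subunit of phagocytes, also chosen with its values known, had a log2 fold change of 0.06. Of 10 genes of antigen presentation, 7 were under the floor on at least 1 array. H2-Ab1, a class II chain, had 18, 10 and 26 against 40, 34 and 39, so that its log2 fold change of 0.94 (standard error 0.21, unadjusted p = 0.00804, adjusted p = 0.361 from limma) depends on the floor. Its partner chain H2-Aa, chosen likewise, had -0.05.

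**Figure D5:**
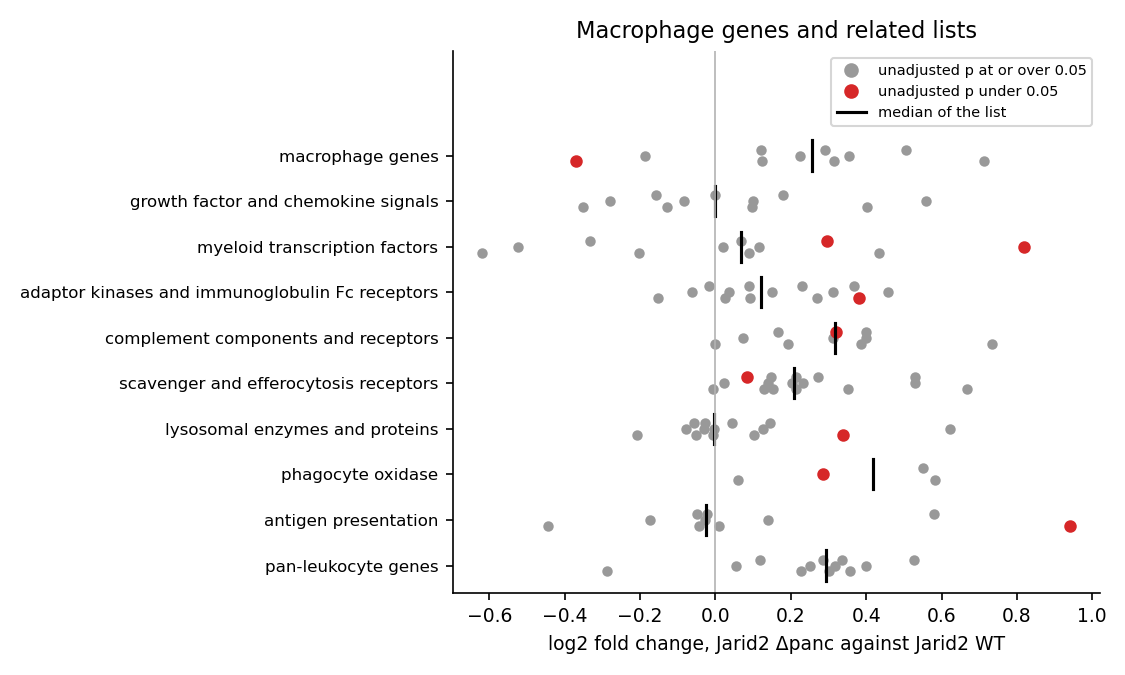
Log2 fold change of Jarid2 Δpanc against Jarid2 WT (horizontal axis, log2 units) for each gene of the macrophage set and of 9 related lists, with red points for an unadjusted p under 0.05 from limma and black lines for list medians. The red points are 1 of the 10 macrophage genes, C1qa at -0.37, and 8 of 102 related genes, all of them above 0; none passed after adjustment.

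The 10 genes varied together across samples to different degrees. The Pearson correlation of each gene with the mean of the other 9 over the 6 samples was 0.94 for Cd68, 0.93 for Tyrobp, 0.91 for Lyz2, 0.91 for Fcer1g and 0.89 for Csf1r. It was 0.82 for Mrc1 and 0.76 for C1qb. Adgre1, C1qc and C1qa stood apart from these, with 0.31, 0.14 and -0.10. These values share the same 6 arrays, with Jarid2 Δpanc replicate 1 the highest and Jarid2 WT replicate 1 the lowest in the mean of the 10. Among 9865 other genes with a mean log2 signal of at least 6, the 5 whose profile was most like the mean of the 10 were Fermt3 (r = 0.99), F2r (0.99), Pde5a (0.98), Zfp655 (0.98) and Clic1 (0.97). Taking the highest of so many genes over 6 samples favours high values, so that these correlations are a description and not a test. Fermt3 encodes kindlin-3, an integrin activator of blood cells, and had signals of 146, 248 and 179 in Jarid2 WT and 315, 211 and 173 in Jarid2 Δpanc. Clic1, by contrast, varied from 1105 to 1219 across all 6 samples.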

How the data were processed

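RNA of 6 pancreases was hybridized to Affymetrix Mouse Genome 430 2.0 arrays from 50 ng of starting material, amplified in 2 cycles. The deposited values are probe set intensities on a linear scale, made by the authors with MAS5 according to the submitters' notes (version not given) and scaled to a trimmed mean of 150 on each array. The paper's methods name RMA and LIMMA, and RMA was not used here. Readings below 16 were raised to 16 before taking log2.

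All 34958 probe sets with 1 symbol were fitted with limma 3.58.1 in R 4.3.3 (lmFit, eBayes), without covariates, with Benjamini-Hochberg adjustment over all of them. The 932 probe sets with several symbols and 9211 without one were left out. For counts of genes, the probe set with the highest mean log2 stood for each of 18194 genes. A gene is called at an adjusted p under 0.05, and intervals are moderated and unadjusted. Precision is limited by the number of arrays, and each title names an embryo of its own. The fit was tested on simulated data.

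The members, lists and tests were chosen with earlier results of these data known. Named were the 10 genes and, from each list, up to 4 genes at an unadjusted p under 0.05 or, where there were none, the 2 brightest. Genes named after their values were seen are marked as such. Symbols come from the platform annotation, and all 10 had the same symbol in RefSeq. Genes of the lists that the annotation does not name alone were not analysed here. Alternatives were samples left out, a replicate block, quantile normalization, other floors, filters, variance models and choices of probe set. Sex as a term, and all alternatives for the related genes, were added after seeing the data.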

Additional observations from a re-analysis of the deposited data

How the results depend on the processing

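In all 18 alternatives, 0 of the member probe sets passed, while 525 of all 34958 probe sets did with sex as a term and 0 to 18 in the other alternatives. The number of the 10 genes at an unadjusted p under 0.05 ranged from 0 to 2 when single samples were left out, and that of the 102 related genes from 8 to 15. The median log2 fold change of the 10 genes ranged from 0.054, without Jarid2 Δpanc replicate 1, to 0.36, without Jarid2 WT replicate 2. Fcer1g, at -0.068, without Jarid2 Δpanc replicate 1, to 0.27 with single samples left out, was the single gene of the 10 whose direction turned. Replicate numbers are shared between the titles of the groups, but same-numbered samples did not deviate together (correlations of -0.02, -0.04 and -0.04), and no sample correlated best with its own number. With the replicate number as a block, the counts were 0 of the 10 genes and 4 of the related genes. With sex as a term, Csf1r and C1qb had 0.13 and 0.22 instead of 0.29 and 0.51, and Adgre1 0.65 instead of 0.36. The fit with sex sets the Jarid2 Δpanc samples against Jarid2 WT replicate 3 alone, the single control with Xist RNA. These shifts therefore rest on that 1 control, and an effect of sex cannot be told apart from it. Signals near the floor of 16, such as those of Spi1, limit what can be read of dim genes.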
